A study of Rubus idaeus with 6 samples.

Results

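The dormancy-associated gene DRM1, the branching regulator BRC2 and the cold-regulated gene COR314-TM2 were followed in axillary buds of red raspberry (Rubus idaeus). The 3 genes were taken by their gene model identifiers, as the models listed with these Arabidopsis orthologues, out of 19951 gene models with deposited values. COR314-TM2 transcripts were 2.78-fold higher in ‘Wakefield’ than in ‘Heritage’ buds. DRM1 ranked among the most counted transcripts of every library and had its 3 highest values in ‘Heritage’, but the difference did not pass the test over all gene models. BRC2 was counted in few reads, its groups overlapped, and the sign of its difference depended on single libraries.

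Axillary buds form where leaves meet the stem and can stay arrested for long periods before they grow out. DRM1 transcripts are high in arrested buds of pea and Arabidopsis and fall when buds start to grow, so the gene is widely used as a marker of bud dormancy. BRC2 (TCP12 in Arabidopsis) is a transcription factor of the TCP family, related to BRC1, which holds back the outgrowth of axillary buds. COR314-TM2 is named in Arabidopsis for its induction by cold and for its annotation as a thylakoid membrane protein of the chloroplast. Annual-fruiting (AF) raspberries flower on first-year canes, whereas biennial-fruiting (BF) raspberries flower on canes that have passed a winter.

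Buds from 5 to 10 nodes below the apex were sampled on November 5, in spring to early summer, from field plants grown together in an orchard at Motueka, New Zealand. Libraries 62, 63 and 64 came from the AF cultivar ‘Heritage’ and libraries 59, 60 and 61 from the BF cultivar ‘Wakefield’, described as 3 biological replicates each. No treatment was applied, and neither plant age nor the number of plants behind a replicate is given in the sources used here. Since each fruiting habit is represented by 1 cultivar, habit and cultivar cannot be told apart. The recovered depth was 7345603 reads in ‘Wakefield’ 60 and 11334885 to 14977596 reads in the other libraries. Values are normalized counts, that is, reads per gene model divided by a size factor for the library, and they are not corrected for transcript length. Differences are given as log2 of ‘Heritage’ over ‘Wakefield’, from limma on log2(normalized count + 1) over the 17898 gene models with at least 10 in at least 3 libraries, and a gene was called at an adjusted p under 0.05. Buds hold several tissues, and fewer cells of a type and less RNA per cell cannot be told apart in them.

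Across all gene models tested, 2867 (16.0%) were called higher in ‘Heritage’ and 3127 (17.5%) lower, and the median log2 difference was 0.01. The ‘Heritage’ values all lay above the ‘Wakefield’ values for 27.0% of gene models and all below them for 26.2%, so separated groups alone were common in these libraries. Of the 3 genes, limma called 0 higher (DRM1 had an unadjusted p of 0.0461 in limma and was called by DESeq2), 1 lower and 2 not at all, and the groups were separated for DRM1 and COR314-TM2. The study picked DRM1 and COR314-TM2 as candidates with these samples in view, so their directions are not independent evidence.

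DRM1 (Ro03_G06544, Arabidopsis orthologue AT1G28330) is listed on LG3 at 40834857 bp of the v3.0 assembly of black raspberry (R. occidentalis). Its normalized counts were 5252, 6782 and 6957 in ‘Wakefield’ 59, 60 and 61, and 10677, 7903 and 7677 in ‘Heritage’ 62, 63 and 64. Every ‘Heritage’ library was above every ‘Wakefield’ library, with ‘Heritage’ 62 far above the rest and ‘Wakefield’ 59 below the other libraries of its cultivar. The means were 8752 ± 1671 in ‘Heritage’ and 6330.3 ± 938 in ‘Wakefield’ (SD, n = 3 per cultivar), a 1.38-fold difference with a 95% interval of 1.01 to 1.88. On the log2 scale this was 0.46 with a standard error of 0.18, which did not pass after adjustment over all gene models (limma, adjusted p = 0.102). DESeq2 on the recovered reads gave nearly the same size, 0.47, and called it (adjusted p = 0.0281), whereas edgeR with TMM scaling did not (adjusted p = 0.0723). Leaving out ‘Heritage’ 62 or any other single library gave values from 0.31 to 0.55, and limma called none of them.

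The spread of DRM1 between libraries was far above counting noise. Its coefficient of variation was 19.1% in ‘Heritage’ and 14.8% in ‘Wakefield’, where the read numbers alone would give 1.06% and 1.31%. With 4361 to 10205 recovered reads per library, sequencing depth set little of the error on this gene, and the differences between replicates set nearly all of it. The SD of its log2 values in ‘Heritage’, 0.26, was larger than that of 75.1% of gene models, and in ‘Wakefield’, at 0.22, larger than that of 54.0%.

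**Figure D1:**
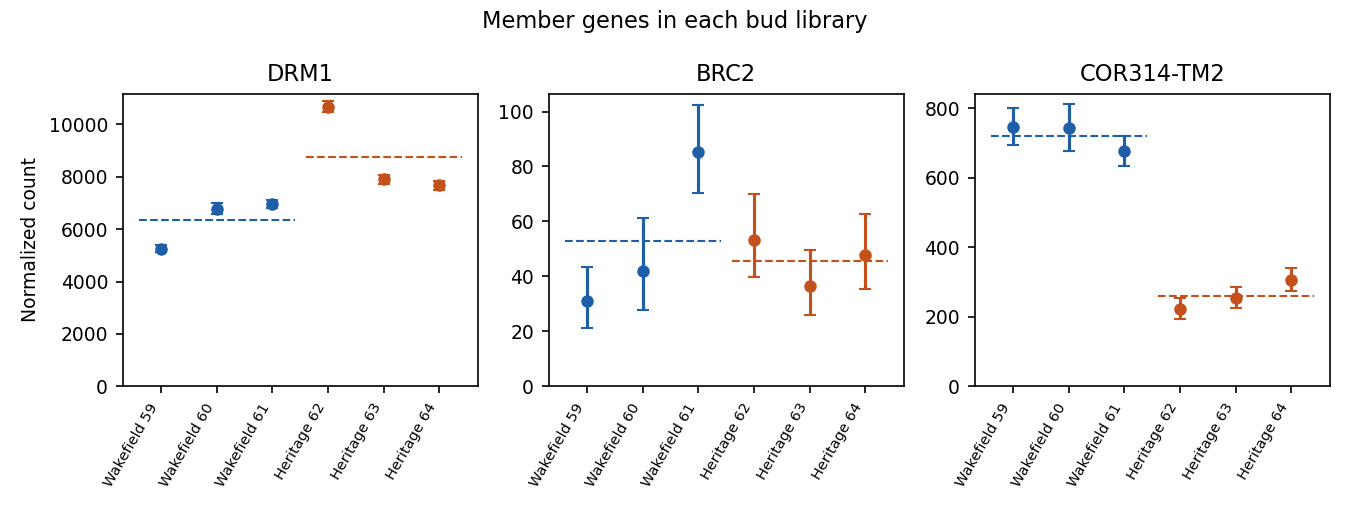
Normalized counts (vertical axes, linear, from 0) of DRM1, BRC2 and COR314-TM2 in the 3 ‘Wakefield’ (blue) and 3 ‘Heritage’ (orange) libraries. Points are libraries, bars are 95% Poisson intervals that cover counting error only, and dashed lines are group means. COR314-TM2 lies between 676 and 746 in ‘Wakefield’ and between 222 and 306 in ‘Heritage’, while the BRC2 groups overlap and 1 ‘Wakefield’ library, 61, stands at 85.4.

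BRC2 (Ro04_G02625, orthologue AT1G68800) is listed on LG4 at 4369986 bp. The study gives the RiAF4 region both a wider and a narrower extent, and this position lies near the edge of the wider one and outside the narrower one. Its normalized counts were 31.0, 42.0 and 85.4 in ‘Wakefield’ 59, 60 and 61, and 53.4, 36.3 and 47.6 in ‘Heritage’ 62, 63 and 64. The highest and the lowest value were both in ‘Wakefield’, and all ‘Heritage’ libraries lay between them. These values rest on 27 to 115 recovered reads, and the 95% counting intervals were wide, from 21.3 to 43.5 in ‘Wakefield’ 59 and from 70.5 to 103 in ‘Wakefield’ 61. The means were 45.8 ± 8.66 in ‘Heritage’ and 52.8 ± 28.8 in ‘Wakefield’ (SD, n = 3 per cultivar), and the log2 difference was -0.09 with a standard error of 0.38 (limma, adjusted p = 0.873). The 95% interval of the fold, 0.492 to 1.80, leaves room for a change of either sign, so neither a difference nor its absence was shown at this depth and number of replicates.

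‘Wakefield’ 61 carried most of the BRC2 variation. It was 2.33-fold above the mean of the other ‘Wakefield’ libraries on the log scale, and 355 of 17898 gene models (1.98%) were at least as far above in the same library. Without it the log2 difference became 0.32 (adjusted p = 0.332), and without ‘Heritage’ 63 it became 0.06 (adjusted p = 0.931). The coefficient of variation of BRC2 was 54.5% in ‘Wakefield’, 3.97 times what the read numbers give, and 18.9% in ‘Heritage’, 1.29 times what they give. The ‘Wakefield’ value rests on library 61, and the spread was not tested between the cultivars.

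COR314-TM2 (Ro03_G13396, orthologue AT1G29390) is listed on LG3 at 39435430 bp, although another listing of the study gives a slightly different position. Its normalized counts were 746, 742 and 676 in ‘Wakefield’ 59, 60 and 61, and 222, 254 and 306 in ‘Heritage’ 62, 63 and 64. The groups were far apart, with the highest ‘Heritage’ library still well under the lowest ‘Wakefield’ library. The 3 ‘Wakefield’ libraries lay close together, and the spread was wider in ‘Heritage’. Averaging 261 ± 42.3 in ‘Heritage’ and 721 ± 39.4 in ‘Wakefield’ (SD, n = 3 per cultivar), the gene was 2.78-fold higher in ‘Wakefield’ (95% interval 2.18 to 3.55). The log2 difference, -1.48, had a standard error of 0.14 and passed the test (limma, adjusted p = 0.00184). Its size exceeded that of 89.3% of gene models tested, and it was 490th by p.

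COR314-TM2 was called lower in ‘Heritage’ under all 16 alternatives run. With 1 library left out the log2 difference ran from -1.60 to -1.37 (adjusted p = 0.00555 to 0.0145), and under the other settings from -1.51 to -1.44. In ‘Wakefield’ its coefficient of variation was 5.46% against 3.89% from counting alone, and its log2 SD of 0.08 was larger than that of only 14.4% of gene models. In ‘Heritage’ the coefficient was 16.2% against 6.08% from counting.

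Abundance ranks, with 1 as the gene model with the most counts in a library, placed the 3 genes in different parts of the range. Because counts also depend on transcript length, the ranks order counts rather than molecules, and they are read here for each gene across libraries. DRM1 ranked 218, 142 and 111 in ‘Wakefield’ 59, 60 and 61, and 52, 95 and 107 in ‘Heritage’ 62, 63 and 64. It was therefore within the top 1.09% of gene models in every library. The last rank in ‘Heritage’, 107, and the first in ‘Wakefield’, 111, were almost the same, so the separation of the ranks rests on a narrow gap.

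COR314-TM2 ranked 3970, 4063 and 4452 in ‘Wakefield’ 59, 60 and 61, and 9885, 9165 and 8311 in ‘Heritage’ 62, 63 and 64. On average it stood 20.9% of the way down the list in ‘Wakefield’ and 45.7% in ‘Heritage’, a move from the upper part of the list to near its middle. BRC2 ranked 15626, 14808 and 13134 in ‘Wakefield’ 59, 60 and 61, and 14393, 15163 and 14622 in ‘Heritage’ 62, 63 and 64. It lay in the lower part of the list in all 6 libraries, between 65.8% and 78.3% of the way down, with no order between the cultivars.

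**Figure D2:**
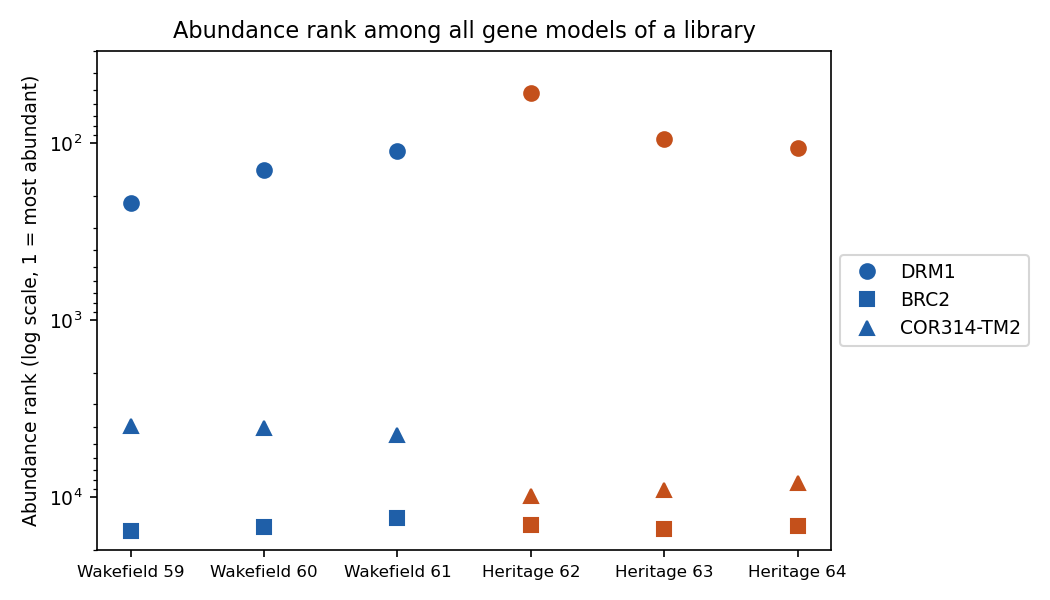
Abundance rank of DRM1 (circles), BRC2 (squares) and COR314-TM2 (triangles) among 19951 gene models in each library, on a log axis with rank 1 at the top, in blue for ‘Wakefield’ and orange for ‘Heritage’. DRM1 stays between ranks 52 and 218, COR314-TM2 goes from 3970 to 4452 in ‘Wakefield’ to 8311 to 9885 in ‘Heritage’, and BRC2 shows no order between the cultivars.

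The ratio of DRM1 to COR314-TM2 within a library does not depend on the size factor. It was 7.04, 9.14 and 10.3 in ‘Wakefield’ 59, 60 and 61, and 48.1, 31.1 and 25.1 in ‘Heritage’ 62, 63 and 64. The ratio was higher in every ‘Heritage’ library, 3.84-fold on the log scale. The exact two-sided permutation test gave p = 0.1, the smallest that 3 against 3 libraries allow. Because the groups were already separated for both genes, in opposite directions, this outcome was fixed in advance and adds no evidence. Most of the ratio difference came from COR314-TM2, whose log2 difference was -1.48, and the rest from DRM1, at 0.46.

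The TCP family comprises growth regulators that act in shoots, leaves and buds. From the study's gene listing for its LG3 and LG4 regions, 4 of its genes were listed, including BRC2. The lists below come from the same regions, so no list covers its family or pathway across the genome. Of the 4 TCP genes, 1 was called higher, 0 lower and 3 were not called, beside the 16.0% and 17.5% of all gene models. TCP14 (Ro04_G00084), which promotes cell division in young internodes of Arabidopsis, had counts of 161, 157 and 171 in ‘Wakefield’ 59, 60 and 61, and 348, 359 and 289.5 in ‘Heritage’ 62, 63 and 64. The groups were well separated, with a log2 difference of 1.02 (limma, adjusted p = 0.0030), and the call held under every alternative run. TCP10 (Ro03_G05207), which acts in leaf development, had 47.1 ± 3.58 in ‘Heritage’ and 32.9 ± 12.1 in ‘Wakefield’ (SD, n = 3 per cultivar), and was called only without ‘Wakefield’ 61 (limma, adjusted p = 0.129 with all libraries). TCP2 (Ro03_G33035), a related leaf regulator, had 683 ± 52.8 and 816 ± 133 (SD, n = 3 per cultivar, limma, adjusted p = 0.242).

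Of the 5 listed genes of cold and dehydration responses, COR314-TM2 among them, 0 were called higher in ‘Heritage’, 3 lower and 2 were not called, beside 16.0% called higher and 17.5% called lower of all gene models. The median log2 difference of the list was -1.03, where that of all gene models was 0.01, and the groups were separated for all 5 genes, beside 27.0% (‘Heritage’ higher) and 26.2% (‘Heritage’ lower) of all gene models. GOLS4 (Ro04_G00307), a galactinol synthase of the pathway to raffinose sugars, had 163 ± 36.8 in ‘Heritage’ and 335 ± 86.7 in ‘Wakefield’ (SD, n = 3 per cultivar), a log2 difference of -1.03 (limma, adjusted p = 0.0236). ERD4 (Ro03_G15331), induced early by dehydration in Arabidopsis, had 1637 ± 135 and 2573 ± 428 (SD, n = 3 per cultivar), a log2 difference of -0.64 (limma, adjusted p = 0.0252). These calls were less firm than that of COR314-TM2. Leaving out ‘Wakefield’ 60, ‘Heritage’ 62 or ‘Heritage’ 64 left 1 gene called, COR314-TM2, because ERD4 and GOLS4 then missed the threshold, and leaving out ‘Wakefield’ 61 or ‘Heritage’ 63 also lost ERD4.

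HVA22C (Ro04_G36166), whose family responds to abscisic acid and stress, had 54.1 ± 13.4 in ‘Heritage’ and 119 ± 52.2 in ‘Wakefield’ (SD, n = 3 per cultivar, limma, adjusted p = 0.0670), and edgeR and DESeq2 called it lower in ‘Heritage’ (adjusted p = 0.0435 with TMM and 0.0137). SFR6 (Ro03_G06488), a Mediator subunit needed for freezing tolerance in Arabidopsis, was the only cold-listed gene with the higher values in ‘Heritage’, at 1617 ± 57.0 and 1449 ± 27.2 (SD, n = 3 per cultivar), and was not called (limma, adjusted p = 0.215). Of the 5 listed genes, 4 thus had a negative log2 difference, and that of SFR6 was positive but not called. COR314-TM2 had the log2 difference of largest size among them.

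Abscisic acid is a hormone of bud and seed dormancy and of drought responses, and 4 of its genes were listed from the LG3 and LG4 regions. Of the 3 that passed the filter on low values, limma called 0 higher and 0 lower, beside 16.0% and 17.5% of all gene models. Their median log2 difference was 0.00, and 1 of them, NCED3, had an unadjusted p under 0.05 in limma. NCED3 (Ro03_G17438), which makes the rate-limiting cleavage enzyme of abscisic acid synthesis, had 341, 547 and 288 in ‘Wakefield’ 59, 60 and 61, and 239, 175 and 256 in ‘Heritage’ 62, 63 and 64. The groups were separated, with a log2 difference of -0.77 (limma, adjusted p = 0.0781), and edgeR, DESeq2 and limma with a mean-variance trend called it lower in ‘Heritage’ (adjusted p = 0.0442 with edgeR and TMM, 0.0133 with DESeq2). DWA3 (Ro03_G06450), part of a ubiquitin ligase that restrains abscisic acid responses in Arabidopsis, averaged 661 in both cultivars. An abscisic acid-responsive GRAM domain gene (Ro04_G23457) had a log2 difference of 0.18 and overlapping groups (limma, adjusted p = 0.678). AHG11 (Ro03_G05808), a gene of abscisic acid sensitivity in germination, had at most 9.65 in any library, did not pass the filter, and was not called without a filter (limma, log2 difference -1.07, adjusted p = 0.217) or by DESeq2 (adjusted p = 0.414).

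**Figure D3:**
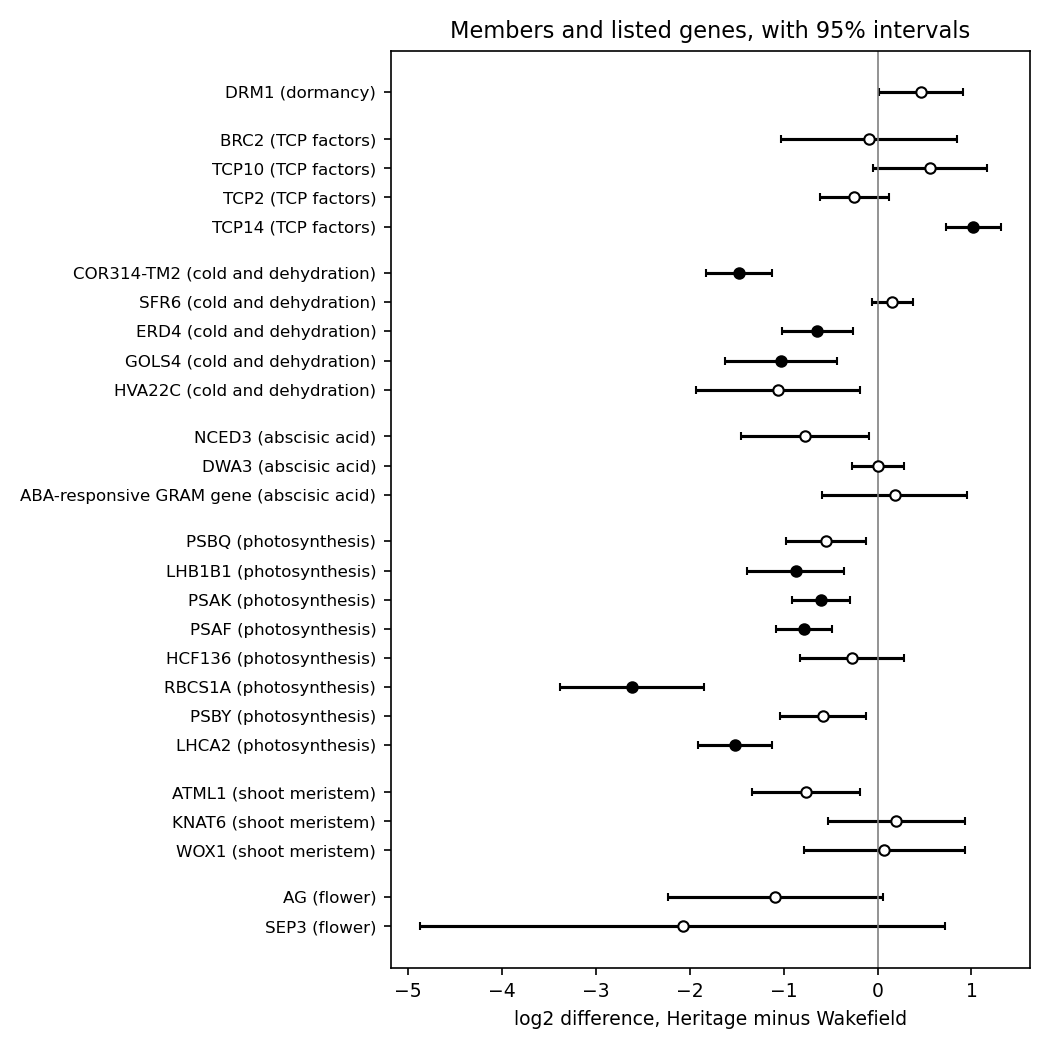
The log2 difference, ‘Heritage’ minus ‘Wakefield’ (horizontal axis), of DRM1, BRC2, COR314-TM2 and the listed genes, with 95% intervals from limma over 3 libraries per cultivar. Filled points were called at an adjusted p under 0.05 and open points were not, and the label gives each gene's list. COR314-TM2 (-1.48) lies left of 0 with 2 other called cold genes and 5 called photosynthesis genes, and TCP14 (1.02) is the only called gene on the right.

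The annotated name of COR314-TM2 refers to the thylakoid membrane, and the location of its protein was not tested. Nuclear genes of photosynthesis, which also serve as markers of green leaf tissue in a bud sample, were listed beside this gene. Of 8 listed photosynthesis genes, 0 were called higher and 5 lower, all 8 had a negative log2 difference (median -0.70), and the groups were separated for 7. Of all gene models, 17.5% were called lower and 26.2% were separated with ‘Heritage’ lower. Their summed normalized counts ran from 9449 to 10580 in ‘Heritage’ and from 15123 to 20795 in ‘Wakefield’. RBCS1A (Ro04_G02684), 1 gene model with a small subunit gene of Rubisco as its orthologue, had 27.0 ± 7.27 in ‘Heritage’ and 172 ± 53.2 in ‘Wakefield’ (SD, n = 3 per cultivar), a log2 difference of -2.61 (limma, adjusted p = 0.0032). Its means were the lowest of the 8 genes in both cultivars, and other gene models of this subunit were not examined. LHCA2 (Ro04_G07134), an antenna protein of photosystem I, had 1576 ± 264 and 4498 ± 526 (SD, n = 3 per cultivar), a log2 difference of -1.52 (limma, adjusted p = 0.0023). PSAF (Ro03_G10895), another photosystem I subunit, had a log2 difference of -0.79 (limma, adjusted p = 0.0070). These 3 calls held under every alternative, whereas without ‘Heritage’ 62 or ‘Heritage’ 63 the calls of LHB1B1 and PSAK were lost and 3 of the 8 remained. LHB1B1 alone was lost without ‘Wakefield’ 59 or ‘Wakefield’ 60. The part of leaf tissue in the COR314-TM2 difference was not tested.

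Within a library, COR314-TM2 can be set against each photosynthesis gene without a size factor, a measure that was added after the data had been seen. Relative to PSBQ, LHB1B1, PSAK, PSAF, HCF136 and PSBY, that is, 6 of the 8 genes, COR314-TM2 was lower in every ‘Heritage’ library, by a log2 difference of -0.61 against LHB1B1 to -1.21 against HCF136. Against RBCS1A it was higher in every ‘Heritage’ library, by 1.18. Only 747 of 17898 gene models tested had a log2 difference below that of COR314-TM2, so its mean log2 ratio to most gene models was lower in ‘Heritage’. The count of 6 is therefore no result about photosynthesis genes. Against LHCA2 the ratio was 0.160, 0.151 and 0.173 in ‘Wakefield’ 59, 60 and 61, and 0.162, 0.171 and 0.163 in ‘Heritage’ 62, 63 and 64, so that the groups overlapped (log2 difference 0.04, exact permutation p = 0.5). The exact permutation p of each of the other 7 ratios was 0.1, the smallest possible, or 0.114 adjusted over the 8. These tests could not pass at 3 against 3 libraries, the ratios carry the same counts as the differences above, and a p of 0.5 does not show that COR314-TM2 and LHCA2 changed equally.

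Markers of other bud tissues were measured in the same libraries. Of the 3 listed genes of shoot meristem and young primordia, limma called 0 higher and 0 lower, beside 16.0% and 17.5% of all gene models. Among them 1, ATML1, had an unadjusted p under 0.05 in limma. Their summed counts ran from 943 to 1040.2 in ‘Heritage’ and from 1235 to 1297 in ‘Wakefield’. KNAT6 (Ro04_G02787), a homeobox gene of the shoot meristem, was counted in every library, at 548 to 605 in ‘Heritage’ and 312 to 650 in ‘Wakefield’. ATML1 (Ro03_G10561), of the outer cell layer, had 350 to 470 in ‘Heritage’ and 574 to 965 in ‘Wakefield’ (limma, adjusted p = 0.0527), and edgeR and DESeq2 called it lower in ‘Heritage’ (adjusted p = 0.0253 with TMM and 0.00363). WOX1 (Ro04_G00187) was low, at 9.52 to 19.9 in ‘Heritage’ and 10.4 to 20.7 in ‘Wakefield’. The 2 flower markers AG and SEP3 summed to 33.5 to 48.6 in ‘Heritage’ and 43.8 to 305 in ‘Wakefield’, and no listed marker was at 0 in a library. The part of these tissues in the differences of DRM1, BRC2 and COR314-TM2 was not tested.

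The profile of each gene was compared with those of 1278 other gene models that have a described orthologue in the listed LG3 and LG4 regions, by the root mean square difference of log2 values centred over the 6 libraries. A small value means that a gene model went up and down in the same libraries by similar amounts, and it says nothing of shared function or control. For COR314-TM2 the nearest was LHCA2, at 0.07, and none of all 17897 other gene models tested was nearer. This likeness restates the overlapping ratio to LHCA2 given above and is no separate finding. A galacturonosyltransferase-like gene (Ro04_G36195), of a family of cell wall enzymes, also stood at 0.07, with 159 ± 21.0 in ‘Heritage’ and 437 ± 48.1 in ‘Wakefield’ (SD, n = 3 per cultivar). A DEAD/DEAH box RNA helicase (Ro04_G07183), a BURP domain gene (Ro04_G00325) and an HD domain phosphohydrolase (Ro04_G00331) followed, at 0.13, 0.17 and 0.17. Few gene models were this near to COR314-TM2, with 8 of 17897 within 0.1.

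Among the 1278 described gene models, the nearest to DRM1 were UBP25 (Ro03_G13490), a ubiquitin-specific protease, at 0.08, VOZ1 (Ro03_G05182), a zinc finger transcription factor, at 0.09, and GOLLUM (Ro03_G10179), at 0.09. VPS28 (Ro03_G05933), a protein sorting component, and a choline transporter family gene (Ro04_G36207) followed at 0.10 each. UBP25 had 364, 418 and 437 in ‘Wakefield’ 59, 60 and 61, and 699, 570 and 516 in ‘Heritage’ 62, 63 and 64. UBP25 shared with DRM1 the lowest value in ‘Wakefield’ 59 and the highest in ‘Heritage’ 62, which follows from its choice by similar profile. Of all 17897 gene models, 8 were nearer to DRM1 than UBP25 and 35 were within 0.1.

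From counting alone, BRC2 had a coefficient of variation of 14.6% in ‘Heritage’ and 13.7% in ‘Wakefield’, which limits how near any profile can come to it. Of all 17897 gene models, BRC2 had 0 within 0.1 and 18 within 0.2. The nearest described ones were a D-ribose-binding protein-like gene (Ro04_G00361) at 0.19, the acyltransferase GPAT5 (Ro04_G00410) at 0.21, the receptor-like kinase gene B120 (Ro03_G33076) at 0.23, beta-ketoacyl reductase 2 (Ro04_G22240) at 0.28 and a C2H2 zinc finger gene (Ro04_G02638) at 0.30. Ro04_G00361 had 321, 411 and 654 in ‘Wakefield’ 59, 60 and 61, and 384, 355 and 389 in ‘Heritage’ 62, 63 and 64. All 5, like BRC2, had their highest value in ‘Wakefield’ 61. They were picked for profiles like that of BRC2, so this shared peak is no separate finding.

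**Figure D4:**
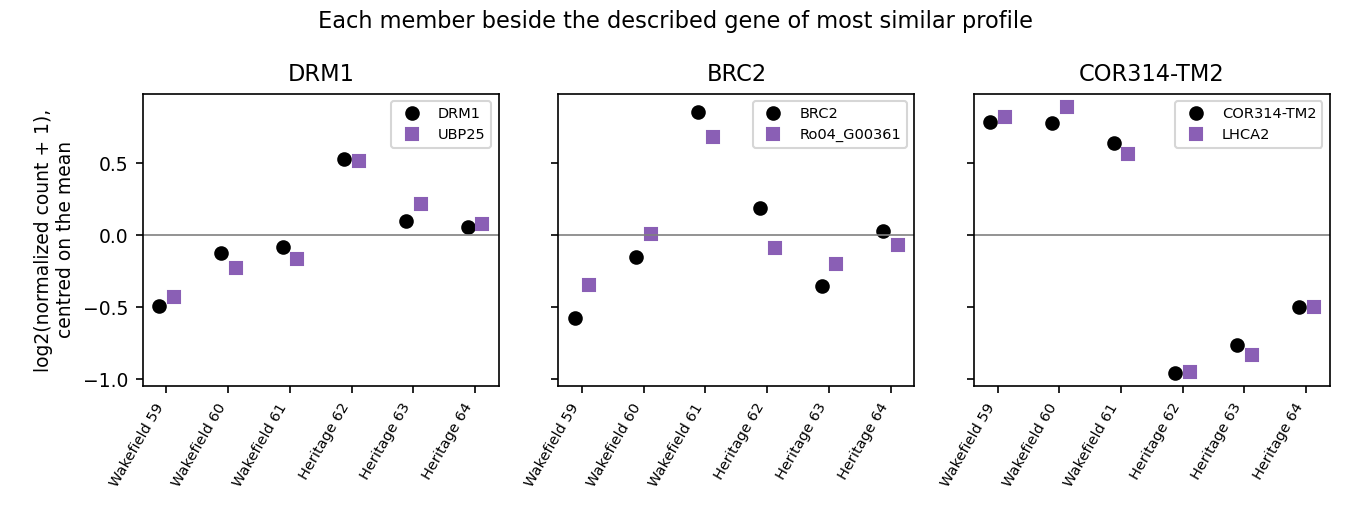
Centred log2(normalized count + 1) in each library for DRM1, BRC2 and COR314-TM2 (black circles), each beside the described gene model of most similar profile (purple squares), namely UBP25, Ro04_G00361 and LHCA2. The root mean square differences are 0.08, 0.19 and 0.07.

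The 5 listed gene models on either side of each gene were examined to see whether neighbours on the chromosome differed as it did. The study counts more gene models in these regions than the 1998 lines held of its listing. A model called next to a gene here is the next listed one, and unlisted models may lie between. Around DRM1, 9 of 10 neighbours passed the filter, and their log2 differences ran from -0.95 to 0.65. The models next to it were not called, at 0.25 for ATRING1A (Ro03_G06543), a chromatin protein 2269 bp away, and 0.32 for Ro03_G06546, 8415 bp away (limma, adjusted p = 0.183 and 0.0926). Of the 9, limma called 1 higher and 0 lower, beside 16.0% and 17.5% of all gene models. SPL3 (Ro03_G33114), a regulator of phase change and flowering 18046 bp away, is named here after its values were seen. It was called lower by edgeR (log2 difference -1.03, adjusted p = 0.0265 with TMM) and DESeq2 (adjusted p = 0.00149). The gene called higher was ATERF12 (Ro03_G06548), a transcription factor of the ERF family 50410 bp from DRM1, with 508 ± 106 in ‘Heritage’ and 319 ± 28.2 in ‘Wakefield’ (SD, n = 3 per cultivar, log2 difference 0.65, limma, adjusted p = 0.0336). Its call was lost when any library but ‘Heritage’ 63 was left out (adjusted p = 0.0569 to 0.0782).

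Around BRC2, 9 of 10 neighbours passed the filter. Of these, 1 was called higher and 1 lower, beside 16.0% and 17.5% of all gene models. The aspartyl protease gene next to BRC2 (Ro04_G02626), 7665 bp away, had 432, 263 and 270 in ‘Wakefield’ 59, 60 and 61, and 161, 150 and 177 in ‘Heritage’ 62, 63 and 64. Unlike BRC2, it was separated between the cultivars, with a log2 difference of -0.94 (limma, adjusted p = 0.022), although leaving out any ‘Heritage’ library lost the call (adjusted p = 0.0511 to 0.0786). The coiled-coil gene on the other side (Ro04_G02624), 4902 bp away, had a log2 difference of -0.15 and was not called (limma, adjusted p = 0.368). A GC-rich sequence DNA-binding factor-like gene (Ro04_G02629), 34624 bp away, was called higher, at 0.34 (limma, adjusted p = 0.0479), and lost the call without any 1 library (adjusted p = 0.0609 to 0.131).

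All 10 neighbours of COR314-TM2 passed the filter, and 3 were called higher in ‘Heritage’ and 0 lower in the main test, where 16.0% and 17.5% of all gene models were called higher and lower. Of these neighbours 1, Ro03_G13402, was called lower by limma with a mean-variance trend and by edgeR with TMM, at -0.28 (adjusted p = 0.0478 and 0.0495). The models next to it, Ro03_G13397 at 1818 bp and PRP39-2 (Ro03_G33065), a splicing factor gene at 15671 bp, had log2 differences of 0.05 and 0.03 and were not called (limma, adjusted p = 0.911 and 0.845). UMAMIT40 (Ro03_G13393), an amino acid transporter family gene 22910 bp away, had 292, 249 and 92.1 in ‘Wakefield’ 59, 60 and 61, and 738, 706 and 529 in ‘Heritage’ 62, 63 and 64. It was thus opposite to COR314-TM2, with a log2 difference of 1.78 (limma, adjusted p = 0.0291), and lost the call without any ‘Heritage’ library (adjusted p = 0.0595 to 0.0925). AML5 (Ro03_G13390) and Ro03_G13400 were called higher at 0.35 and 0.38 (limma, adjusted p = 0.0303 and 0.0342), and both lost the call when any library but ‘Wakefield’ 59 was left out (adjusted p = 0.0571 to 0.115).

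**Figure D5:**
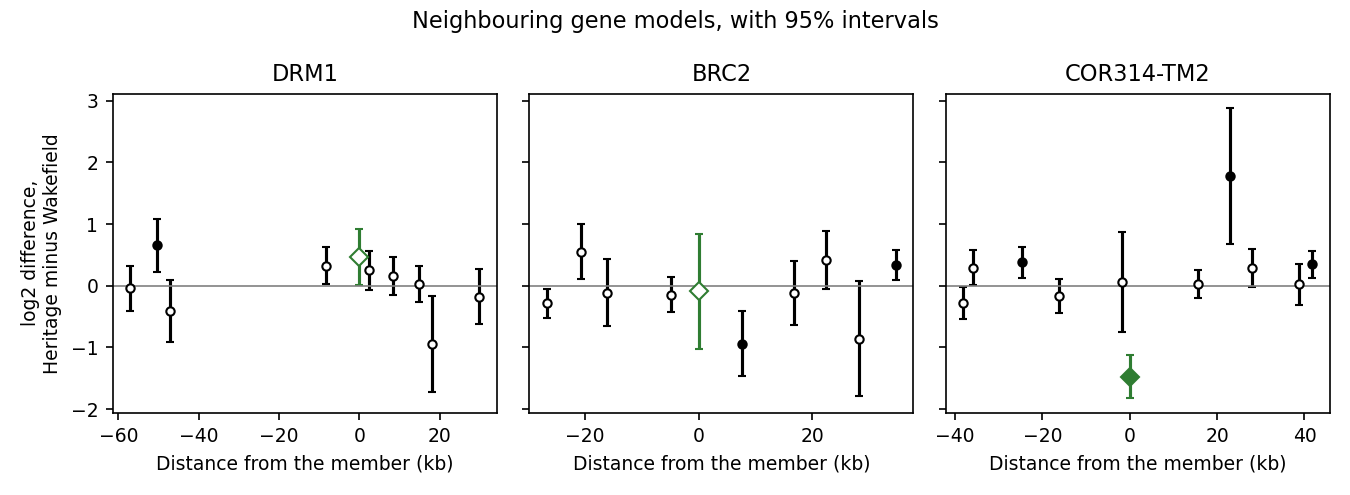
The log2 difference, ‘Heritage’ minus ‘Wakefield’, with 95% intervals from limma, of DRM1, BRC2 and COR314-TM2 (green diamonds at 0) and of the tested gene models among the 5 listed on either side of each (circles), against distance in kilobases. Filled symbols were called at an adjusted p under 0.05. COR314-TM2, at -1.48, is the only gene model called below 0 in its panel, while UMAMIT40 reaches 1.78.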

How the data were processed

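Total RNA of 3 bud samples per cultivar was sequenced with a stranded, paired-end protocol. Trimming by the authors used Trimmomatic, SortMeRNA took out ribosomal reads, STAR placed the rest on the v3.0 gene models of R. occidentalis, and DESeq2 served for the comparison of ‘Heritage’ and ‘Wakefield’. Trimmomatic, STAR and DESeq2 stand without versions in the submitters' processing notes. The counting program, the strand setting and the treatment of shared reads are items not given in the sources used here. Because both cultivars were aligned to another species, sequence differences between them can change a count. The deposited signal values are counts that the authors divided by a library size factor. Deposited fold changes and p-values of the authors were not used.

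Values were whole multiples of 1 read (tolerance 0.001 of a read) for 100% of gene models, checked up to 20000 reads. Groups follow the cultivar labels. Since the unit is not raw counts, genes were tested in R 4.3.3 by limma 3.58.1, after a filter of 10 in 3 libraries, on log2(value + 1), with Benjamini-Hochberg adjustment. Alternatives were edgeR 4.0.16 (TMM, RLE) and DESeq2 1.42.0 on recovered reads, pseudocounts of 0.1 and 10, no filter, a filter of 50, a mean-variance trend, TMM or total scaling, and each library left out. The limma, edgeR and DESeq2 p-values set the cultivar difference against the spread between libraries of a cultivar. They do not cover variation among AF or among BF cultivars. Counting intervals are 95% Poisson and cover counting error only. The method was tested on simulated data, and tables and permutation tests used Python 3.11.15. Orthologues and positions come from the 1998 lines held of the study's gene listing for its LG3 and LG4 regions. Named genes are DRM1, BRC2, COR314-TM2, the listed genes, the 5 described models nearest in profile, and the called or adjacent ones of 5 neighbours per side. Genes and lists were chosen with earlier results of these data known.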

Additional observations from a re-analysis of the deposited data

How the results depend on the processing

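DRM1 stayed between 0.31 and 0.55 on the log2 scale and was called by DESeq2 alone (0.47, adjusted p = 0.0281). BRC2 ran from -0.40 to 0.32 with 1 library left out, was positive without ‘Wakefield’ 61 (0.32) and without ‘Heritage’ 63 (0.06), and was not tested under the filter of 50. The cause was not tested. COR314-TM2 was called under all 16 alternatives. With 1 library left out, the genes called numbered 1 to 2 higher among the TCP factors, 1 to 4 lower in the cold and dehydration list and 3 to 7 lower among the photosynthesis genes. In the abscisic acid list 1 gene, NCED3, was called lower under the mean-variance trend, edgeR with TMM, edgeR with RLE and DESeq2. The log2 ratio of DRM1 to COR314-TM2 was 1.68 to 2.15 with 1 library left out and 1.94 with 1 added to each count. No paired analysis was possible because the cultivars share no replicate numbers. BRC2 had the fewest reads of the 3 genes, 27 to 115. Its spread in ‘Wakefield’ was 3.97 times what the read numbers give, so depth alone did not set its error.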

Other observations

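The flower markers differed among the ‘Wakefield’ libraries. SEP3 (Ro04_G07112), a floral organ identity gene, had 221, 29.5 and 7.43 in ‘Wakefield’ 59, 60 and 61, and 7.32, 6.36 and 11.4 in ‘Heritage’ 62, 63 and 64. AG (Ro03_G05331), which specifies stamens and carpels, had 84.5, 129 and 36.4 in ‘Wakefield’ 59, 60 and 61, and 26.2, 40.9 and 37.1 in ‘Heritage’ 62, 63 and 64. ‘Wakefield’ 59 and 60 were thus above every ‘Heritage’ library for both genes, and ‘Wakefield’ 61 was not, so the groups overlapped and limma called neither gene (adjusted p = 0.122 for AG and 0.206 for SEP3). DESeq2 called both lower in ‘Heritage’ (adjusted p = 0.0301 for AG and 0.0018 for SEP3), and limma called AG without ‘Wakefield’ 61 (adjusted p = 0.0171). BRC2 was lower in ‘Wakefield’ 59 and 60 (31.0 and 42.0) than in ‘Wakefield’ 61 (85.4). Any tie between the floral markers and BRC2 was not tested.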
